A study of Mus musculus with 8 samples.

Results

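The chromatin described here is that of microglia from the cortex of the 4 mice that received vehicle, taken from a study of 8 mice in which the other 4 received interleukin-33 (IL-33). All 4 were at postnatal day 30, had a single-sided intracerebroventricular injection of vehicle, and were killed 4 hours later. Of them 2 were labelled male and 2 female. Strain, genotype and the markers used in the sort are not given in the sources used here, so these mice are injected controls, not untouched ones. Cells were dissociated, enriched on a Percoll gradient and sorted, and each library was labelled with its own mouse. All 4 vehicle libraries of the 8 in the study and all 104981 peaks of the deposited table were used. That peak list was merged from vehicle and IL-33 peaks, and 85223 of its peaks were listed for vehicle. The IL-33 columns were not read.

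Microglia are the resident macrophages of the brain. They depend on the receptor CSF1R for survival, and their identity rests on the lineage factor PU.1, encoded by Spi1, together with factors such as SALL1 and signals such as TGF-beta. ATAC-seq uses a transposase that inserts adapters into accessible DNA, so a peak marks a stretch of chromatin that the enzyme could reach. Promoters are the sequences at transcription start sites, and many enhancers lie in introns or between genes, where accessibility differs more between cell types than it does at promoters.

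Promoter windows of 300 bases, from 250 before to 50 after a start site, show the range of sequence under the open promoters described below. The letters are from RefSeq, GRCm38.p6, which is the mm10 build of the peaks, and are given 5′ to 3′ on the strand of the gene. Capitals mark short motifs on either strand. The first is the ETS core, GGAAGT, found in sites of factors such as PU.1. The next is the box that the factor NF-Y is known to bind, CCAAT. The last is the GC box of the SP family, GGGCGG. P2ry12 (chr3:59262936-59263235, minus strand), Cx3cr1 (chr9:120068247-120068546, minus), C1qb (chr4:136886151-136886450, minus) and Sall1 (chr8:89042813-89043112, minus) are shown as microglia genes. Hjurp (chr1:88277530-88277829, minus) and Fer (chr17:63863731-63864030, plus) are shown because their promoters were among the 10 strongest of all.
P2ry12: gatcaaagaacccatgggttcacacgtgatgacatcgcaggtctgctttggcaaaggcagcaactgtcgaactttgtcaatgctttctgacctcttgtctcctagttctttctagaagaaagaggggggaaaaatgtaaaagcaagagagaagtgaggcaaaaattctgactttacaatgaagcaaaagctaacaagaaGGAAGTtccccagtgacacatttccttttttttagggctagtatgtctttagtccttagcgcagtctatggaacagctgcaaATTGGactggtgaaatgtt
Cx3cr1: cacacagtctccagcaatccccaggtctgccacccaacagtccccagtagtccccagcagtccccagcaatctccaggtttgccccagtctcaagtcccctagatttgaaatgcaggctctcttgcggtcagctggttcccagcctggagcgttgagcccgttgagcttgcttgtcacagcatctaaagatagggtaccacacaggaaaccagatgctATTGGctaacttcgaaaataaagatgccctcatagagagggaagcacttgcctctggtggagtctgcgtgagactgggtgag
C1qb: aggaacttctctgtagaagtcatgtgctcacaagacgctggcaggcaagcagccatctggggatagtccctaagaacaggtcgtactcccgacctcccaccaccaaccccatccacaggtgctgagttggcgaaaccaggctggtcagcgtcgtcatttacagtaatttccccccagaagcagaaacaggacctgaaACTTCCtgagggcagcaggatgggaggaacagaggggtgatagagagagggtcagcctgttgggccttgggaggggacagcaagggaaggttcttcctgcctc
Sall1: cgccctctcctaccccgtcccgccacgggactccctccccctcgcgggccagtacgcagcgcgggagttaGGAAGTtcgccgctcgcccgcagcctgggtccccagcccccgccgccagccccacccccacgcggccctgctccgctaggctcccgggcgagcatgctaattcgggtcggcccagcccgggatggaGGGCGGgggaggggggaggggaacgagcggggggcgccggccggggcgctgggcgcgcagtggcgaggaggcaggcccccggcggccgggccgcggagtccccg
Hjurp: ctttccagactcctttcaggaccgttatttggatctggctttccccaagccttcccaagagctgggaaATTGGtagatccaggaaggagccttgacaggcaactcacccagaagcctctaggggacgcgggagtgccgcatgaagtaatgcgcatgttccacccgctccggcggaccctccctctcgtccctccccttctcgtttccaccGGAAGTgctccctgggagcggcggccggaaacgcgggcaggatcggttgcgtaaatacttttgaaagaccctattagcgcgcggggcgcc
Fer: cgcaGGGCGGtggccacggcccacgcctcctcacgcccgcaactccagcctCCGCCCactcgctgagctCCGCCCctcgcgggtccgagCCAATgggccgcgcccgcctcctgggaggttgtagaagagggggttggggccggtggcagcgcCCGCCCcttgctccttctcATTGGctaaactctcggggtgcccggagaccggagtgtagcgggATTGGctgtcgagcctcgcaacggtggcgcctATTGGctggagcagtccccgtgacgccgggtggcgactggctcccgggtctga
Levels are given throughout in scaled tags per kb, the tags in a peak scaled by the authors to 10000000 per library and divided by the length of the peak. The P2ry12, Cx3cr1 and C1qb windows held 4, 5 and 6 CpG dinucleotides, while the Sall1, Hjurp and Fer windows held 39, 22 and 31. The peak over the C1qb window reached 541, 619, 451 and 549 tags per kb in vehicle libraries 1 to 4 with few CpG, and that over the Fer window 911, 962, 779 and 993 tags per kb. The P2ry12 window carried a far lower peak, at 149, 152, 84.7 and 131 tags per kb.

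The 4 libraries held 35842688 to 43857673 tags. Peaks took up 26.5%, 27.9%, 20.8% and 26.5% of the tags of libraries 1 to 4, with a mean of 25.4% ± 3.15 (SD, n = 4). Library 3 stood below the other 3: its tags in peaks were 0.772 of their mean, 0.782 at promoters and 0.763 at distal peaks. It was also the lowest library at nearly every peak named here, and the mean share without it was 26.95%. The Pearson correlation of log2(tags + 1) across peaks was 0.945 to 0.960 for the 6 pairs of libraries, a description over 104981 peaks that share sequence and list. Read counts differed beyond counting noise in every pair of libraries, with chi-square values of at least 3.73 per degree of freedom. The coefficient of variation over the 4 libraries had a median of 35.4% in peaks under 20 tags per kb and 11.7% in peaks at 400 or more, so the strong peaks are measured more tightly.

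Of the 6 genes that mark microglia, all had several peaks, and the strongest peak was outside the annotated promoter class at 3 of them. Csf1r, the receptor for CSF1 and interleukin-34, had 21 assigned peaks and none annotated as promoter. Its leading peak lay in intron 2, 3.05 kb downstream of the start site (chr18:61108429-61108816, mm10), at 694, 749, 565 and 652 tags per kb in libraries 1 to 4, or 665 ± 77.5 (SD, n = 4). That intron is known to hold a conserved enhancer of Csf1r. The peak ranked first of all distal peaks by tags per peak once repeats and unnamed genes were left out, with 257 tags in its 387 bp. A second peak 6.38 kb upstream stood at 357, 329, 232 and 310.0 tags per kb. The peak in the 5′ UTR, 290 bp from the start site, was lower in all 4 libraries, at 209.5, 230.2, 137 and 236 tags per kb.

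P2ry12 encodes the ADP receptor that steers microglial processes toward injury. Its leading peak lay 2.02 kb downstream of the start site, in intron 32 of the overlapping gene Med12l by the deposited annotation (chr3:59260827-59261107). It reached 579.8, 605, 472 and 563 tags per kb. The peak at the start site reached 149, 152, 84.7 and 131 tags per kb, below the intronic peak in each library without overlap. A peak 1.21 kb upstream stood at 213, 252, 146 and 248 tags per kb, above the start-site peak in 4 of 4 libraries though the ranges overlapped.

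Sall1 encodes a zinc finger repressor that among brain cells is largely restricted to microglia. It had 69 assigned peaks, the most of the 6. The strongest were a pair in intron 1, both over a CpG island, at 1.27 kb (chr8:89042737-89043047) and 451 bp (chr8:89043562-89043861) downstream of the annotated start site. The first stood at 588, 592, 477 and 561 tags per kb and the second at 538, 596, 392 and 546. RefSeq promoter windows of Sall1 overlapped both peaks, the first of them printed above, so by that annotation they lie at start sites. Distant intergenic peaks followed, 360.3 kb upstream at 411, 440.3, 318 and 454 tags per kb and 349 kb upstream at 396, 434, 312 and 389. Assignment of peaks at such distances rests on the nearest start site only.

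Cx3cr1, the fractalkine receptor, showed its highest level at the start site (chr9:120068171-120068396), at 434, 480.3, 356 and 439 tags per kb. In its intron 1, peaks 13.2 kb and 9.36 kb downstream reached 406, 412, 273 and 373 tags per kb and 374, 408, 247 and 343 tags per kb. Across libraries the ranges of these 3 peaks overlapped. Tmem119, a membrane protein used to label microglia, had its leading peak at the promoter (chr5:113800402-113800622), at 456, 427, 308 and 414 tags per kb. A peak 13.2 kb downstream was nearly as high, at 380.4, 405, 267 and 394 tags per kb.

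Spi1 showed the same pairing of a promoter with a distant group. The promoter peak (chr2:91096621-91096890) stood at 390.4, 419.9, 300.1 and 369 tags per kb. Upstream, peaks at 11.98 kb and 12.34 kb reached 368, 353, 280.2 and 383 tags per kb and 310, 294, 209 and 252 tags per kb, and one at 10.1 kb had a mean of 171. Ordered by the mean of the leading peak, Csf1r came first at 665 tags per kb, then P2ry12 and Sall1, each at 555, then Cx3cr1 at 427, Tmem119 at 401 and Spi1 at 369.8. The ranges over libraries of neighbours in this order overlapped. Within libraries, Csf1r was above P2ry12, Sall1 above Cx3cr1 and Tmem119 above Spi1 in 4 of 4, while P2ry12 and Sall1, and Cx3cr1 and Tmem119, changed places between libraries.

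**Figure D1:**
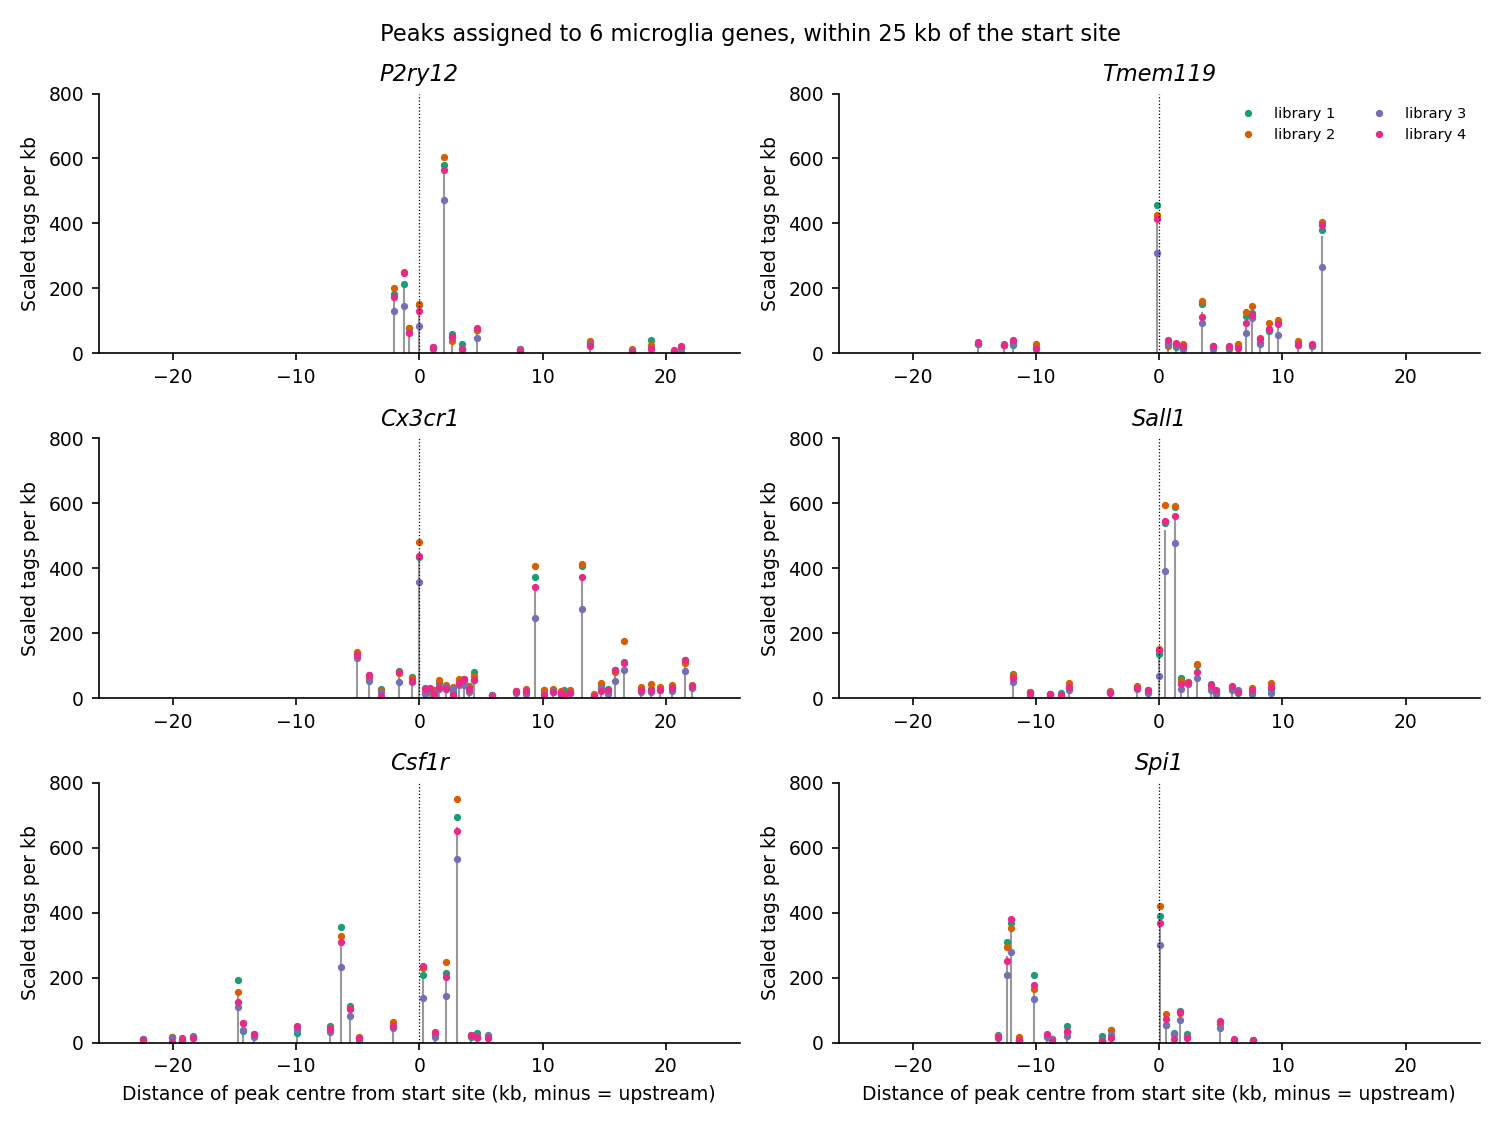
Peaks assigned to 6 microglia genes, placed by distance of the peak centre from the start site in kb, with the level in scaled tags per kb of peak. Grey stems are means and coloured points the 4 vehicle libraries. Csf1r, P2ry12 and Sall1 have their highest peak downstream of the start site, and Cx3cr1, Tmem119 and Spi1 have it at the promoter.

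Across the whole list the levels were strongly skewed. The median peak held 37.2 tags per kb, the 75th percentile was 96.4 and the highest peak 1394. The strongest 10% of peaks held 43.4% of all tags in peaks. Peaks that the authors listed for vehicle had a median of 49.5 tags per kb and held 96.9% of the tags, and the 19758 peaks not listed for vehicle had a median of 12.4.

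Promoters were the most open class. The 15627 promoter peaks made up 14.9% of peaks and 37.6% of tags. Their median was 188, 203, 145 and 193 tags per kb in libraries 1 to 4. Distal peaks, those in introns or between genes and over 3 kb from a start site, numbered 68599 and had medians of 33.7, 35.2, 26.9 and 34.1. The ratio of the medians was 5.72 over the 4 libraries and ran from 5.39 to 5.76 in single ones, so the gap held in each library, library 3 included. Without library 3 the medians were 195 and 33.9 tags per kb.

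Peaks annotated to a 5′ UTR came next, with a median of 76.4 tags per kb over 973 peaks. Exons (31.5), introns (31.2), intergenic DNA (33.6), 3′ UTRs (32.2) and gene ends (31.5 tags per kb) lay close together, and their ranges over libraries overlapped. Promoters of protein-coding genes had a median of 190.2 tags per kb over 14625 peaks and those of non-coding RNA genes 85.5 over 931 peaks. In each library the protein-coding median was the higher.

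The classes were not separate. Of the distal peaks, 4951 (7.22%) were above the median promoter, and 2595 promoter peaks (16.6%) were below the median distal peak. Of the 3928 peaks at 400 tags per kb or more, 75.9% were promoters, against 5.03% of the 25529 peaks under 20 tags per kb.

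With distance from the nearest start site the level dropped within the first few kb and was then flat. Peaks within 100 bp had a median of 227 tags per kb and those from there to 1 kb 57.5. From 1 to 3 kb the median was 29.7, and it stayed between 31.5 and 32.8 in each of the 5 bins from 3 kb to over 500 kb. Peaks outside promoters and over 100 bp to 1 kb downstream of a start site were somewhat higher, with a median of 43.8. At 1 to 3 kb the upstream median was 32.4 and the downstream median 28.1 tags per kb. The 90th percentile was likewise flat from 3 to 500 kb, between 144 and 152 tags per kb.

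**Figure D2:**
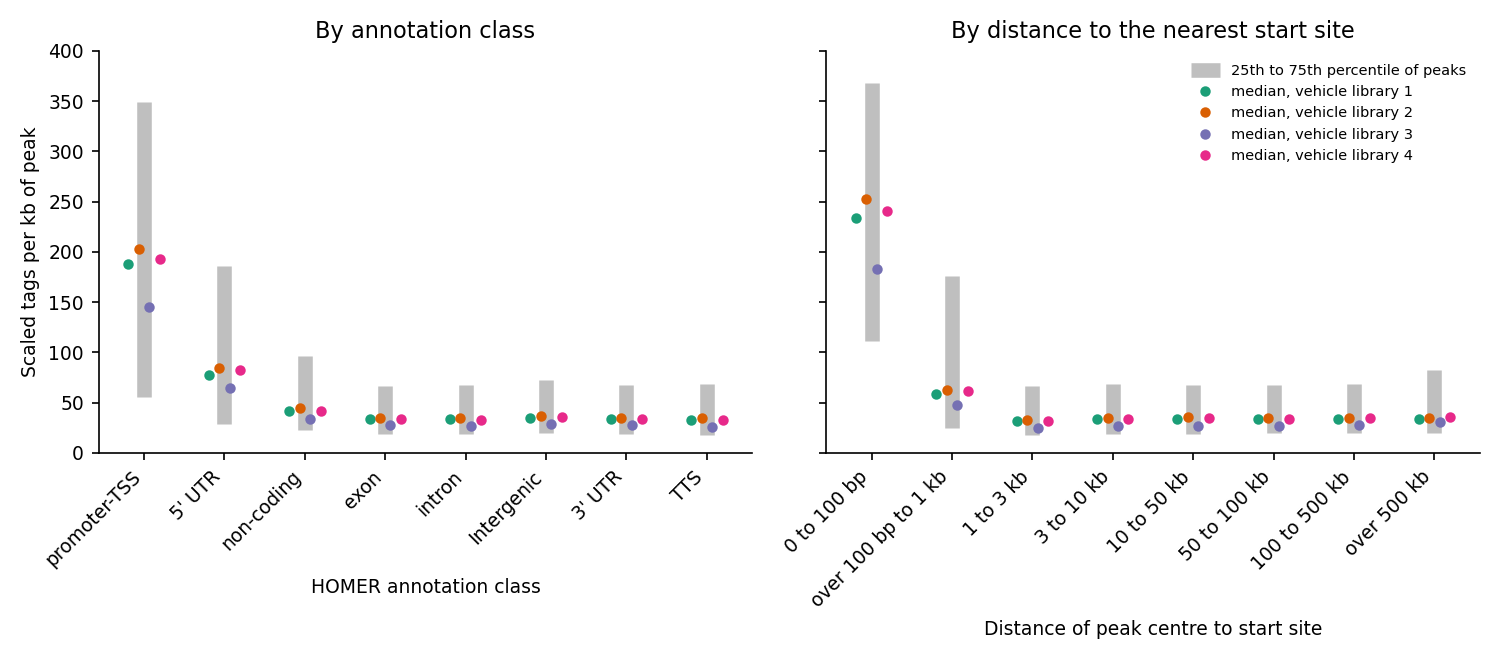
Level of vehicle peaks in scaled tags per kb, by annotation class and by distance of the peak centre to the nearest start site. Grey bars span the 25th to 75th percentile of peaks and coloured points are the medians of the 4 libraries. Promoters (median 183) and peaks within 100 bp of a start site (227) stand above the rest, and library 3 is the lowest in each of these classes.

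Leaving out repeats and predicted genes, the strongest promoter peak was that of Pisd-ps3, on an unplaced scaffold, at 1260.0, 1351, 1162 and 1387 tags per kb. Hjurp, the chaperone of the centromeric histone, followed (chr1:88277546-88277758) at 962, 1018, 868 and 1009 tags per kb. Dcun1d4, a factor of cullin neddylation, stood at 941, 992, 799 and 975 tags per kb. These 3 were lowest in library 3.

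The other promoters of this group lay close behind. Pja2, a ubiquitin ligase, had 919 ± 82.5, Ppp3ca, the catalytic subunit of calcineurin, 914 ± 84.7, and Fer, a tyrosine kinase, 911 ± 94.3 tags per kb (SD, n = 4). Daam1, an actin-regulating formin, had 911 ± 84.1, B3galnt2, a glycosyltransferase, 898 ± 120, and Hmgb2, a chromatin protein, 898 ± 88.3 tags per kb. Hmgcs1, an enzyme of cholesterol synthesis, was the last of the 10 at 887 ± 81.9 tags per kb. From Dcun1d4 to Hmgcs1 the means spanned less than their SD over libraries, and library 3 was the lowest at each, while Dcun1d4 stood above Hmgcs1 in 4 of 4 libraries. Ranked by tags per peak instead, none of the 10 remained, and the first was Nfya, a subunit of the CCAAT-binding factor, with 497 tags per kb over a longer peak.

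Distal peaks were somewhat lower. The highest lay 606 kb from Kctd8 (chr5:68735270-68735509) at 827, 855, 757 and 831 tags per kb. One lay 83.4 kb upstream of Hgf, which encodes hepatocyte growth factor (chr5:16469911-16470185), at 789, 816, 652 and 819 tags per kb. Another lay on the scaffold of Pisd-ps3, at 742, 796, 713 and 781 tags per kb.

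A peak with a mean of 744 tags per kb was nearest to Zfp958, a zinc finger gene, and overlapped a CpG island. Another at 728 was assigned to Dnajc3, a co-chaperone of the endoplasmic reticulum, but lay in intron 33 of Uggt2 and within an ORR1D2 LTR element. Peaks assigned to Pcmtd1 (719) and Kif16b (716 tags per kb), 309 kb and 290.2 kb away, overlapped a CpG island and an LTR50 element. Those of Rybp, a Polycomb component (703), Foxj2, a forkhead factor (702), and Ptprj, a receptor tyrosine phosphatase (693 tags per kb, in its intron 1), completed the 10. Of these 10 peaks, Hgf and Dnajc3 were also among the 10 highest by tags per peak.

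Among the strongest 1000 distal peaks, all at 358 tags per kb or more, 11.6% overlapped a CpG island, against 1.38% of all distal peaks. LTR elements overlapped 4.4% of them and 8.94% of all, and SINEs 1.8% and 4.86%. Introns held 47% of the strongest and 55.6% of all distal peaks.

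**Figure D3:**
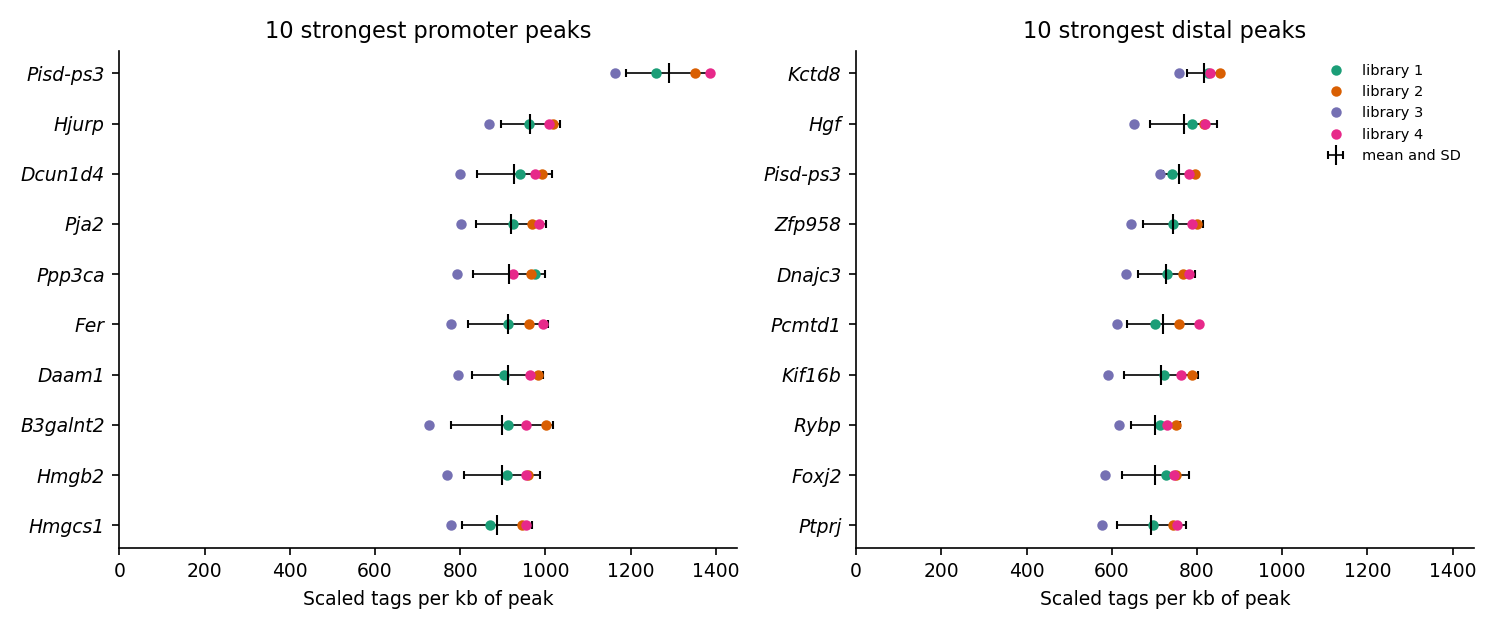
The 10 strongest promoter peaks and the 10 strongest distal peaks of vehicle microglia, 1 per gene, in scaled tags per kb. Points are the 4 libraries and black bars the mean and SD. Promoters span 887 to 1290 and distal peaks 693 to 817, and library 3 is the lowest at each.

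Repeats shared the top of the list. Of the 100 strongest peaks, 20 were in ribosomal RNA, satellite repeats or unplaced scaffolds, among them 13 at Rn45s, the precursor of the large ribosomal RNAs, with a median of 1273 tags per kb. Copies of these sequences cannot be told apart by short reads. The authors kept at most 3 tags per position. If that limit holds for each strand, a peak can reach 1368 to 1674 tags per kb depending on the library, and the highest peaks stood at 1252 to 1474, so levels of the very strongest peaks may be compressed.

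Peaks were spread unevenly over genes. The 18207 genes with an assigned peak had a median of 3, and 3978 of them (21.8%) had 1 peak. Only 66 genes had 50 or more, and these held 4.11% of all peaks. Leaving aside Pisd-ps3, with 116 peaks on its scaffold, the most peaks belonged to Maf (101), a macrophage transcription factor. Elmo1, an engulfment adaptor, had 99 and Frmd4a, a scaffold protein, 96. Tbl1xr1, a corepressor subunit, had 91 peaks, and Fam49b, a regulator of Rac1, Ly86, a partner of a toll-like receptor homologue, and Runx1, a haematopoietic factor, 87 each. Zeb2, a transcription factor of myeloid cells, had 86 and Marcks, an actin-binding protein, 82.

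Of all peaks in the table, 24.3% reached 100 tags per kb. At Maf the summed tags were 1821, 1911, 1376 and 1660.5 in libraries 1 to 4, and 13 of its 101 peaks did so, against 23 of 82 at Marcks and 20 of 91 at Tbl1xr1. At 572 tags per kb, the strongest peak of Maf was 56.5 kb away from its start, while its promoters held 210.2. Zeb2 promoters held 52.0 tags per kb and its best peak, 103 kb away, 356. By summed tags the first 5 were Pisd-ps3 (4574), Rn45s (3991 tags in 13 peaks), Marcks (2317 ± 298), Tbl1xr1 (1870 ± 245) and Chd7, a chromatin remodeller (1743 ± 266 tags; SD, n = 4). Pisd-ps3 had its highest sum, 5048, in library 3, where the others had their lowest.

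Gene lists of cell types were then compared by their promoters and their summed tags. In bulk chromatin, fewer cells of a type and weaker opening in each cell cannot be told apart. Of 21900 protein-coding genes, 71.3% had any peak, 51.4% a promoter peak, 26.4% a promoter level above 201 tags per kb, the median of genes with one, and 15.3% a best peak of 400 tags per kb or more. The promoter level of a gene pools all its promoter peaks, so weak flanking ones lower it. The median of summed tags was 48.8 per protein-coding gene, with 0 for genes without a peak.

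All 27 microglia identity genes had a peak, and 24 had a promoter peak. Of the 27, 12 had a promoter above the median of genes with one and 14 a best peak of 400 tags per kb or more. That median splits genes with a promoter peak evenly, and 12 of the 24 with one were above it. The median promoter level of the 24 was 203 tags per kb, against 201 for all genes with one. Over all 27 genes, the median of summed tags was 466, 484, 354 and 421 in libraries 1 to 4, with a median of 20 peaks per gene. Among the highest promoters were those of C1qb, a chain of complement C1q, at 541, 619, 451 and 549 tags per kb, and C1qc at 443, 531, 366 and 441 tags per kb. The lowest were Slc2a5, a fructose transporter, at 10.4, Gpr34, a lysophosphatidylserine receptor, at 70.4, and Sall1 at 81.5 tags per kb. The level of Sall1 depends on the annotated start site: a peak over its RefSeq promoter window, annotated as intronic in the deposited table, held 555 tags per kb.

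At several of these genes the strongest peak was not one annotated as promoter. Slc2a5 had a peak 1.88 kb from its start site at 349 ± 63.1 tags per kb. Golm1, a Golgi membrane protein, had 195 at its promoters and 532 ± 68.7 in an intronic peak 19.04 kb away. Csf1r, Sparc, a matrix glycoprotein, and Aif1, which encodes IBA1, had no peak annotated as promoter, and their best peaks stood at 665, 330 and 166 tags per kb. A RefSeq promoter window of Sparc overlapped a peak at 326 tags per kb.

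The 21 macrophage transcription factors had the highest median of summed tags of the 16 lists, 711, 768, 566 and 720.2. Of them 20 had a promoter peak, 9 were above the median of genes with one (15 without dividing by peak length), and 8 had a best peak of 400 tags per kb or more. Smad3, which transmits TGF-beta signals, led the promoters at 467, and Spi1 was also among the 3 highest at 369.8 tags per kb. Irf2, an interferon regulatory factor (14.7), Bhlhe40, a basic helix-loop-helix repressor (26.7), and Fli1, an ETS factor (58.5 tags per kb), were the lowest. The level of Irf2 depends on the assignment by nearest start site: a peak over its RefSeq promoter window, assigned to another start site in the deposited table, held 542 tags per kb. At Fli1 an intronic peak reached 390.3 tags per kb, and at Mef2c, a MADS-box factor, an intronic peak 1.38 kb away reached 718, 723, 629 and 777.

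Genes of other cells gave far lower values. Over 13 lists with 156 genes, 118 had some peak, a share of 75.6% that is close to the background of 71.3%. A promoter peak was present at 49 (31.4%, background 51.4%). Of the 156, 1 gene had a promoter above the median (0.641%, background 26.4%), and 8 had a best peak of 400 tags per kb or more (5.13%, background 15.3%). No peak was assigned to 38. Absence from the table is a matter of peak calling and depth, not proof of closed chromatin.

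Among blood cells the exception was Csf3r, the granulocyte colony-stimulating factor receptor, in the neutrophil list, whose promoter stood at 255, 266, 161 and 197 tags per kb. With all peaks within 1 kb of a start site in place of the annotated promoter class, 0 neutrophil genes and 1 endothelial gene were above the median. Of the 12 neutrophil genes, 5 had a promoter peak. Cxcr2, a chemokine receptor, was next at 42.6, and Mmp8 (13.8), S100a8 (10.5) and Camp (7.41 tags per kb), all granule or alarmin genes, were low. Mpo and Retnlg had no peak, and the median of summed tags was 6.18. Of 10 monocyte genes, S100a4 alone had a promoter peak, at 111 tags per kb, and members without a peak included Chil3, F10, Fn1 and Hp.

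For lymphocytes, 3 of 13 T and NK cell genes had a promoter peak, at 61.2 for the factor Gata3, 28.9 for the factor Tcf7 and 17.5 tags per kb for the receptor Klrb1c. Cd3g, Cd8a and Nkg7 had no peak. Of 10 B cell genes, Ebf1 (49.3), Cd79b (31.9) and Cr2 (17.6 tags per kb) had one, and Cd79a, Pax5, Fcer2a and Vpreb3 had no peak. Among 10 erythroid and megakaryocyte genes, 3 had a promoter peak, with the erythropoietin receptor Epor at 134 and the platelet glycoprotein Gp9 at 47.6 tags per kb. No peak was assigned to the globin genes Hba-a1 and Hbb-bs, or to Alas2, Gata1 and Slc4a1.

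Border macrophages of the meninges and vessels are close relatives of microglia. Of 13 of their genes, 12 had a peak, 6 a promoter peak and none a promoter above the median. Stab1, a scavenger receptor, had the highest promoter at 88.4, then Mrc1, the mannose receptor, at 52.5 and Siglec1, a sialic acid lectin, at 40.5 tags per kb. Clec10a (16.5), F13a1 (26.5) and Pf4 (31.1 tags per kb) were the lowest, and Cd209f had no peak. Stab1 also had an intronic peak 7.98 kb from its start site at 327, 396, 242 and 342 tags per kb.

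Brain cells other than microglia showed low promoters in each list. Of 12 pan-neuronal genes, Syn1 (29.6), Map2 (24.6), Tubb3 (20.03) and Elavl3 (11.6 tags per kb) had a promoter peak, and Stmn2, Nefm and Dcx had no peak. Of 11 excitatory genes 5 had one. Cux2 was at 85.0, Rorb at 54.6 and the glutamate transporter Slc17a7 at 22.9, with Tbr1 at 21.2 tags per kb, and Slc17a6 and Neurod6 had no peak. Of 10 inhibitory genes Dlx2 alone had one, at 24.4 tags per kb, and Vip had no peak. The medians of summed tags were 13.6, 41.1 and 10.8 for these 3 lists.

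Of 12 astrocyte genes 5 had a promoter peak, from Aldh1l1, a folate enzyme, at 60.4, Slc1a3, a glutamate transporter, at 36.5 and Fgfr3 at 29.3 down to Gja1 at 25.1 and Slc4a4 at 18.5 tags per kb. Sox9 and Aldoc had no peak. Of 17 oligodendrocyte lineage genes 7 had one. Myrf, a myelin regulatory factor, had 139, Cnp, a myelin enzyme, 114 and Mbp, myelin basic protein, 94.2, while Olig2 (20.8 tags per kb), Olig1 just above it and Pdgfra (23.4) were the lowest. Ugt8a, Sox10 and Gpr17 had no peak.

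Of 12 endothelial genes, the VEGF receptor Kdr had 162, Pecam1 67.3 and Flt1 11.9 tags per kb at the promoter, and Tie1 and Slco1a4 had no peak. Their median of summed tags, 80.5, was above that of all protein-coding genes, 48.8. Of 14 mural and fibroblast genes, Myh11 (47.8), Pdgfrb (40.3) and Col1a2 (14.4 tags per kb) had a promoter peak, and Rgs5, Vtn, Col3a1, Dcn and Lum had no peak.

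The 8 other-cell genes with a peak of 400 tags per kb or more owed it to peaks away from the promoter. Those named here were chosen after their values were seen. Gata3 had an intergenic peak 1.12 kb from its start site at 504, and Kdr one in its 3′ UTR, 44.8 kb away, at 525 tags per kb. For Klrb1c (603), Cd163 (415), Ly6c2 (579.9) and Cr2 (427 tags per kb) the peak was intergenic and 14.6 to 65.0 kb from the start site. That of Slc1a3, at 480.4, was in intron 7. The Ly6c2 peak was at 556, 581, 600.4 and 583 tags per kb, with library 3 the highest.

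The 18 housekeeping genes give the level of promoters that most cells use. All had a peak, 16 a promoter peak and 9 a promoter above the median. Gusb, a lysosomal glucuronidase, had 560.1, the ribosomal protein gene Rpl13a 539 and Pgk1, a glycolytic kinase, 524 tags per kb. Ywhaz, a 14-3-3 protein (70.4), Actb, beta-actin (99.2), and Eef2, an elongation factor (151 tags per kb), were the lowest. Ywhaz and Actb had stronger intronic peaks, 1.69 kb and 0.849 kb from the start site, at 548 and 391 tags per kb. The strongest peak of Eef2 was that at its promoter. The median of summed tags was 175, 201, 139 and 175, below that of the microglia identity genes in each library, and the library medians of these lists did not overlap. Single genes did overlap, with summed tags from 17.7 to 848 for housekeeping and from 124 to 1475 for microglia identity. Median promoter levels of genes with one were in the other order, at 250 tags per kb for housekeeping and 203 for microglia identity.

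Gene families gave a further scale. Of 1110 olfactory receptor genes, 8.56% had a peak and 0.631% a promoter peak, and of 355 vomeronasal receptor genes 6.76% and 0.282%. Promoter peaks were present at 85.7% of 77 ribosomal protein genes, 82.5% of 40 proteasome genes and 79.7% of 59 Rab GTPase genes.

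**Figure D4:**
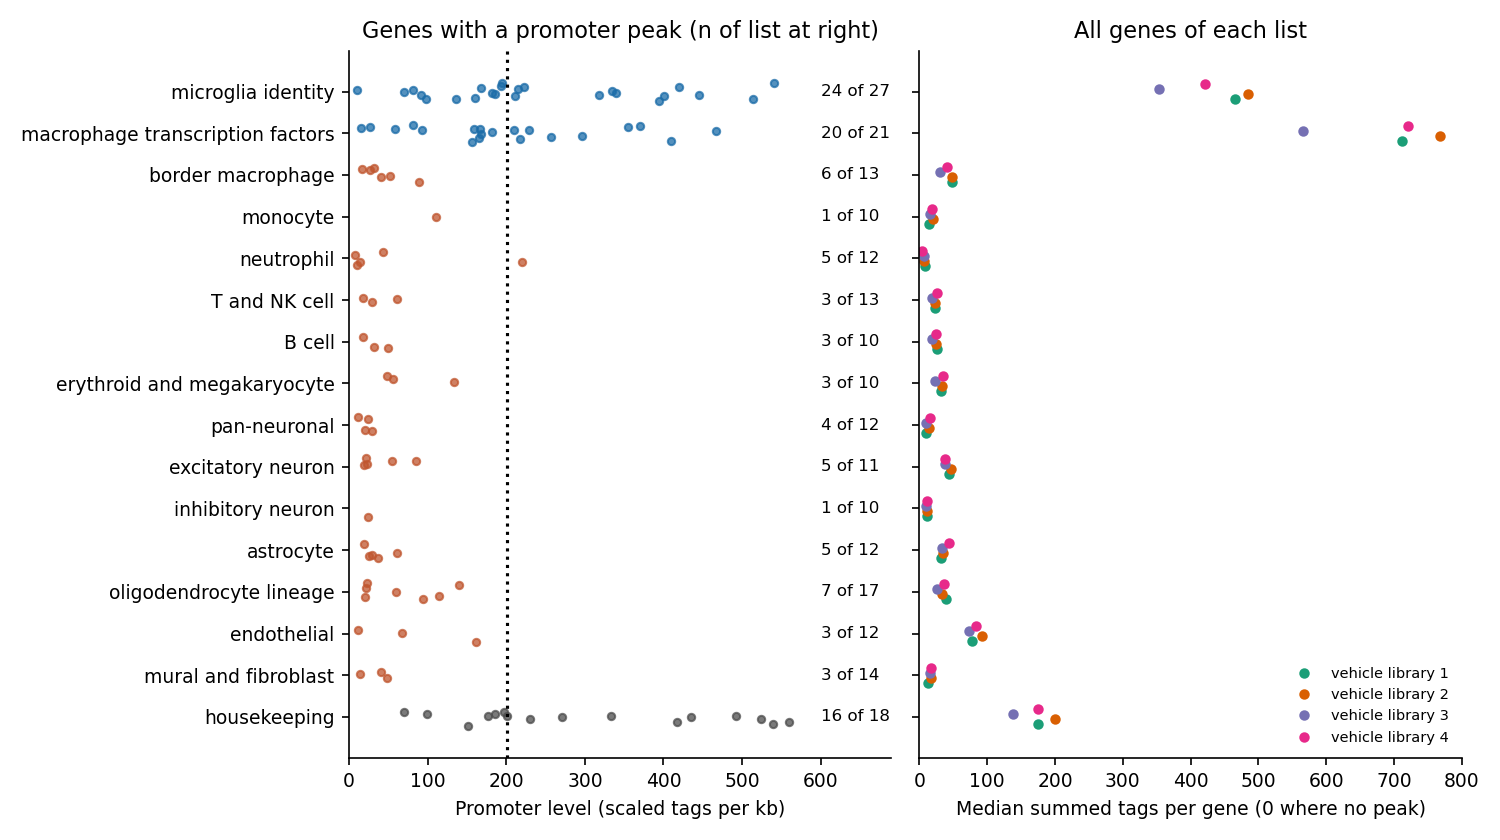
Promoter level in scaled tags per kb of each gene with a promoter peak, and the median of summed tags over all genes of each list in the 4 libraries. The dotted line is the median promoter of all genes with one (201 tags per kb). Microglia identity genes and macrophage factors span 10.4 to 540.1, and 1 gene of the 13 other-cell lists, Csf3r at 220, lies right of the line, a count that becomes 0 neutrophil genes and 1 endothelial gene when all peaks within 1 kb of a start site are used.

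Promoter sequence was compared with level in 32817 RefSeq windows of 26994 genes, of which 13302 (40.5%) overlapped a peak. Windows with a peak were put in 4 classes of nearly equal size by level, and windows of genes in the lists matched for 164 of 221 genes. The median CpG count was 4 in windows without a peak and 13, 20, 23 and 25 from the lowest to the highest class. The Spearman coefficient of CpG count and level was 0.334 over the windows with a peak, a description across windows that share base composition. Windows with 10 or fewer CpG had a median of 74.7 tags per kb and those with more 268.

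Motif letters were searched on both strands, and a base may belong to more than 1 motif. The GC box was present in 35.6% of all windows, in 15.6% of those without a peak and in 49.3%, 59.8%, 70.3% and 81.0% of the classes in rising order. The CCAAT box was not ordered in this way. It was present in 37.4% of all windows and 37.1% of those without a peak, then in 30.1%, 27.3%, 37.5% and 56.3%. TATA letters (TATAAA) fell from 18.5% without a peak to 3.58% in the highest class, and the AP-1 letters (TGANTCA) from 9.997% to 3.13%. The ETS core was in 19.7% of windows without a peak and in 26.1% to 32.3% of the classes. Median GC content also rose, from 48% without a peak to 58%, 60.3%, 62.3% and 64.3% in the classes. The part of base composition in these motif shares was not tested. Of the 7 strongest named promoters with a window, 6 held a CCAAT box and 6 a GC box. A match describes these letters only and is no evidence that a factor binds.

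Microglia identity promoters departed from the CpG trend. Their 20 matched windows had a median of 6 CpG and, for the 19 with a peak, a median of 288 tags per kb. Housekeeping windows had 24 CpG and 409 tags per kb, over 13 windows, and all genes with a peak in a window 21 CpG and 242 tags per kb. Macrophage transcription factors had 30.5 CpG and 362 tags per kb over 14 windows. The ETS core was in 9 of 20 microglia windows and 5 of 13 housekeeping windows. Over all 11504 genes with a peak in a window, at 1 window per gene, it was in 29.9%. The GC box was in 9 of 20, 8 of 13 and 66.0%. These counts are small, and border macrophage windows, 4 of 10 with a peak, held the ETS core in 6 of 10. Neutrophil windows held it in 7 of 12, monocyte windows in 4 of 7 and B cell windows in 4 of 6. All remaining lists had a lower share than the microglia list.

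**Figure D5:**
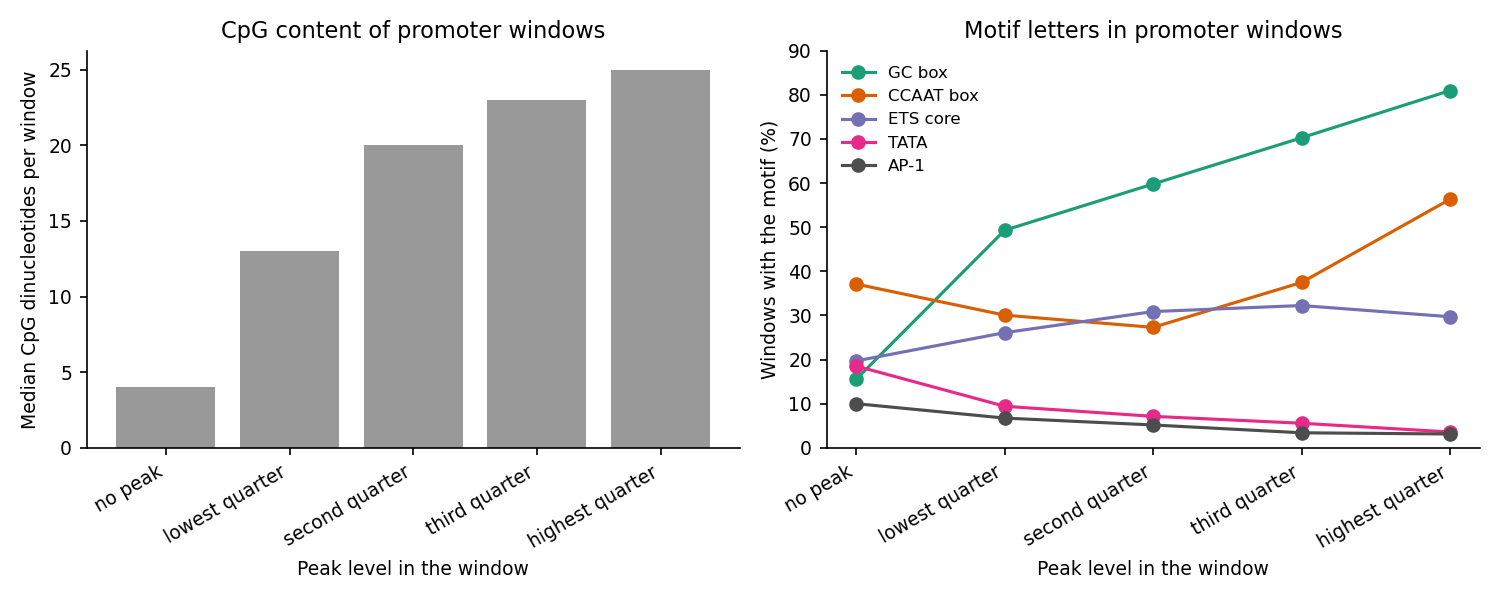
Median CpG count per promoter window and share of windows with motif letters, for windows without a peak and for 4 classes by level in scaled tags per kb. CpG counts go from 4 to 25 and GC boxes from 15.6% to 81.0%, while CCAAT boxes dip to 27.3% before reaching 56.3%.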

How the data were processed

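ATAC-seq libraries of 4 vehicle mice were used. Per the file headers, the authors merged reproducible (IDR) peaks of vehicle and IL-33, counted tags over each whole peak with HOMER annotatePeaks on mm10, kept at most 3 tags per position, and deposited a signal, the tags scaled to 10000000 per library. The deposited peak score was not used. Bowtie2, HOMER and DESeq2 are named, without roles, in the submitters' processing notes. Duplicate removal and read shifting are not given in the sources used here. Every vehicle value was a whole multiple of 1 read within 0.005 tags, 1 read being worth 0.114 to 0.139 tags, so the floor of 3 reads was 0.342 to 0.418 tags. Wilson intervals (95%) of the shares in peaks, 20.81% to 20.83% in library 3 and as narrow in the others, and these floors cover counting error only.

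Levels are means of the 4 vehicle columns per kb of peak, computed with Python 3.11.15, pandas 2.3.3 and SciPy 1.17.1. No groups were compared, so no count model was fitted, and no test was run: with 4 libraries an exact paired test cannot fall below a two-sided p of 0.125. Columns name the group but not the mouse, and 0 other columns of values went unmapped. The ranking of peaks was tested on simulated data, and the gene list step was not. Genes are the nearest start sites in the deposited annotation, and 18185 of 18207 matched RefSeq identifiers. Annotation classes are HOMER's, with promoters meaning its promoter class.

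Members and lists were chosen with earlier results of these data known. The text names the 6 marker genes, the 10 strongest promoter and 10 strongest distal peaks (1 per gene, without repeats and predicted, microRNA, LOC or Rik genes), the 10 genes with most peaks, the 5 with most summed tags, and from each list the 3 highest and 3 lowest promoters and the members without a peak. A few genes that this rule names are not reported here. Above the tenth peak, 1 promoter and 9 distal peaks were left out by that rule. Other genes named, such as Nfya, Golm1, Sparc, Aif1 and Mef2c, were chosen after their values were seen.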

Additional observations from a re-analysis of the deposited data

Results flagged for a closer look

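Each of 72 values was examined for a single library far from the other 3, by the gap to its nearest neighbour over the whole range, against Dixon's 95% critical value. The Foxj2 distal peak stood out, at 728, 750, 584 and 745 tags per kb, because library 3 at 584 lay far below the others, with a ratio of 0.867. About 1 in 20 such groups would be flagged by chance. Library 3 also had the lowest share of tags in peaks, 20.8%, and the part of that share in this value was not tested.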

How the results depend on the processing

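Of 454 alternative values, for 42 results under 16 settings, 414 stayed within the spread over single libraries or within 1.5 times a count. Part of the 414 was fixed in advance, because leaving out a single library cannot move a mean over libraries beyond that spread. Such values cannot show stability, so the 414 is a tally and not a measure of robustness. The other 40 of the 454 moved further. Without dividing by length, the promoter median was 49.97 and the distal median 9.51 tags per peak (ratio 5.26), the medians within 100 bp and at 10 to 50 kb were 61.8 and 9.57, and the median promoter of genes with one was 69.4. Macrophage transcription factors then had 15 genes above it, and the oligodendrocyte and endothelial lists 1 each. Of the strongest 10, 0 promoter and 2 distal genes were shared with the ranking per kb. With peaks listed for vehicle, the distal median and that at 10 to 50 kb were both 41.7, the ratio 4.89, the promoter share of tags 38.5% and the neutrophil median of summed tags 2.915. Without the lowest 10% of means, the same medians were 37.1 and 37.3 and the ratio 5.15. With all peaks within 1 kb of a start site, the median promoter was 156, with 0 neutrophil, 1 endothelial and 15 housekeeping genes above it. By summed tags against the median of genes with a peak, 91.1, the genes above were 27 for microglia identity, 20 for macrophage factors, 6 for border macrophages, 3 each for monocytes and for T and NK cells, 2 each for B cells, erythroid cells and astrocytes, 1 for each neuronal list, 6 each for the oligodendrocyte and endothelial lists and 15 for housekeeping. Other-cell lists are thus lowest by promoters and less far apart by summed tags. Without ribosomal, repeat and unplaced peaks, chosen after seeing the data, 3 of the 5 highest summed loci were shared, since Pisd-ps3 and Rn45s leave the table. The mean correlation was 0.933 and 0.967 with pseudocounts of 0.1 and 5. Leaving out each library moved the promoter median between 176 and 195, the distal median between 31.1 and 33.9 and the microglia count between 11 and 13. No paired analysis was possible because there is 1 group and its columns carry no mouse number. Peaks under 20 tags per kb, with a median coefficient of variation of 35.4%, are the least reliable.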
